A study of Mus musculus with 15 samples.

Results

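The 10 genes described here are the D cyclins, the kinases they activate and the inhibitors of those kinases: Ccnd1, Ccnd2, Ccnd3, Cdk4, Cdk6, Cdkn1a, Cdkn1b, Cdkn2a, Cdkn2b and Cdkn2c. Every probe whose symbol in the deposited normalized matrix is 1 of these names was taken, which gave 17 probes of the 41174 listed there and 10 of 21531 gene symbols. Of these, 16 probes of 9 genes were well above background on at least 3 arrays and were tested. The probe of Cdkn2a was not. The study followed liver tumors driven by MYC in FVB/N mice, on 15 single-colour arrays of total RNA from 4 groups. Pre-tumor livers (4 arrays) came from LAP-tTA x TRE-MYC mice taken off doxycycline for 4 to 5 weeks, with no tumor seen. Tumor nodules (4 arrays) came from mice of that genotype after 8 to 9 weeks off the drug. Regression samples (4 arrays) came from the same genotype at 8 to 9 weeks off the drug, followed by 72 hours back on it. Beyond their titles, the labels do not say whether these were dissected tumor tissue or whole liver. Control livers (3 arrays) came from LAP-tTA mice, which carry the transactivator and no TRE-MYC transgene. No time off the drug is given for them. Mice ate chow with doxycycline at 200 mg/kg up to an age of more than 8 weeks. In this system doxycycline keeps the TRE-MYC transgene silent and its removal lets the transactivator switch it on, in cells where the liver promoter LAP is active. It is not stated that the arrays of a group come from different animals, so p-values measure the spread between these samples, part of which may be technical.

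Cells leave G1 when D cyclins bind and activate the kinases CDK4 and CDK6, which phosphorylate the retinoblastoma protein and so release E2F factors that switch on S phase genes. The INK4 inhibitors (p16, p15 and p18, from Cdkn2a, Cdkn2b and Cdkn2c) bind these kinases directly, and the CIP/KIP inhibitors (p21 from Cdkn1a and p27 from Cdkn1b) act mainly on cyclin and kinase complexes of CDK2. MYC is a transcription factor that binds E-box sequences together with MAX, and adult hepatocytes are normally quiescent but re-enter the cycle after liver injury.

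Levels are given as log2 signal relative to the 75th percentile of the same array, so that 0 is that percentile. Levels of different probes are not compared with each other. A difference was called when its adjusted p in limma's moderated test over 19335 genes was under 0.05. The arrays differed in brightness: the median signal was between 6.78 and 71.3 and the share of spots well above background between 46.4% and 90.8%. Hepatocyte markers, 14 of 15 of which were measured, had a mean level of 2.57 to 4.03 in tumor nodules and 5.66 to 6.44 in control livers. Of the 14, 11 were called lower in tumor nodules, beside 7.01% of all genes. The part of this in the differences between groups was not tested. Of the 3 Myc probes, A_52_P108346 read 0.09 to 2.50 in pre-tumor livers, 3.65 to 4.81 in tumor nodules, -0.82 to -0.10 in regression samples and -1.63 to -0.23 in control livers. It was called in tumor nodules against control livers (5.16 ± 0.54 SE on the log2 scale, adjusted p 7.51e-06) and in regression samples against tumor nodules (-4.65 ± 0.50, adjusted p 2.87e-05). The brightest Myc probe, A_52_P278549, read 0.44 to 1.22 in tumor nodules against 1.62 to 2.18 in control livers and was not called (-1.10 ± 0.47, adjusted p 0.128). Calls of the remaining probe, A_51_P102096, ran opposite to those of A_52_P108346. It was called lower in tumor nodules against pre-tumor livers (-1.27 ± 0.42, adjusted p 0.0434) and higher in regression samples against tumor nodules (1.65 ± 0.42, adjusted p 0.0126), with 1 of 4 tumor arrays well above background. The labels do not say which of these probes the transgene can reach. In tissue RNA, fewer cells of a type and less RNA per cell cannot be told apart.

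**Figure D1:**
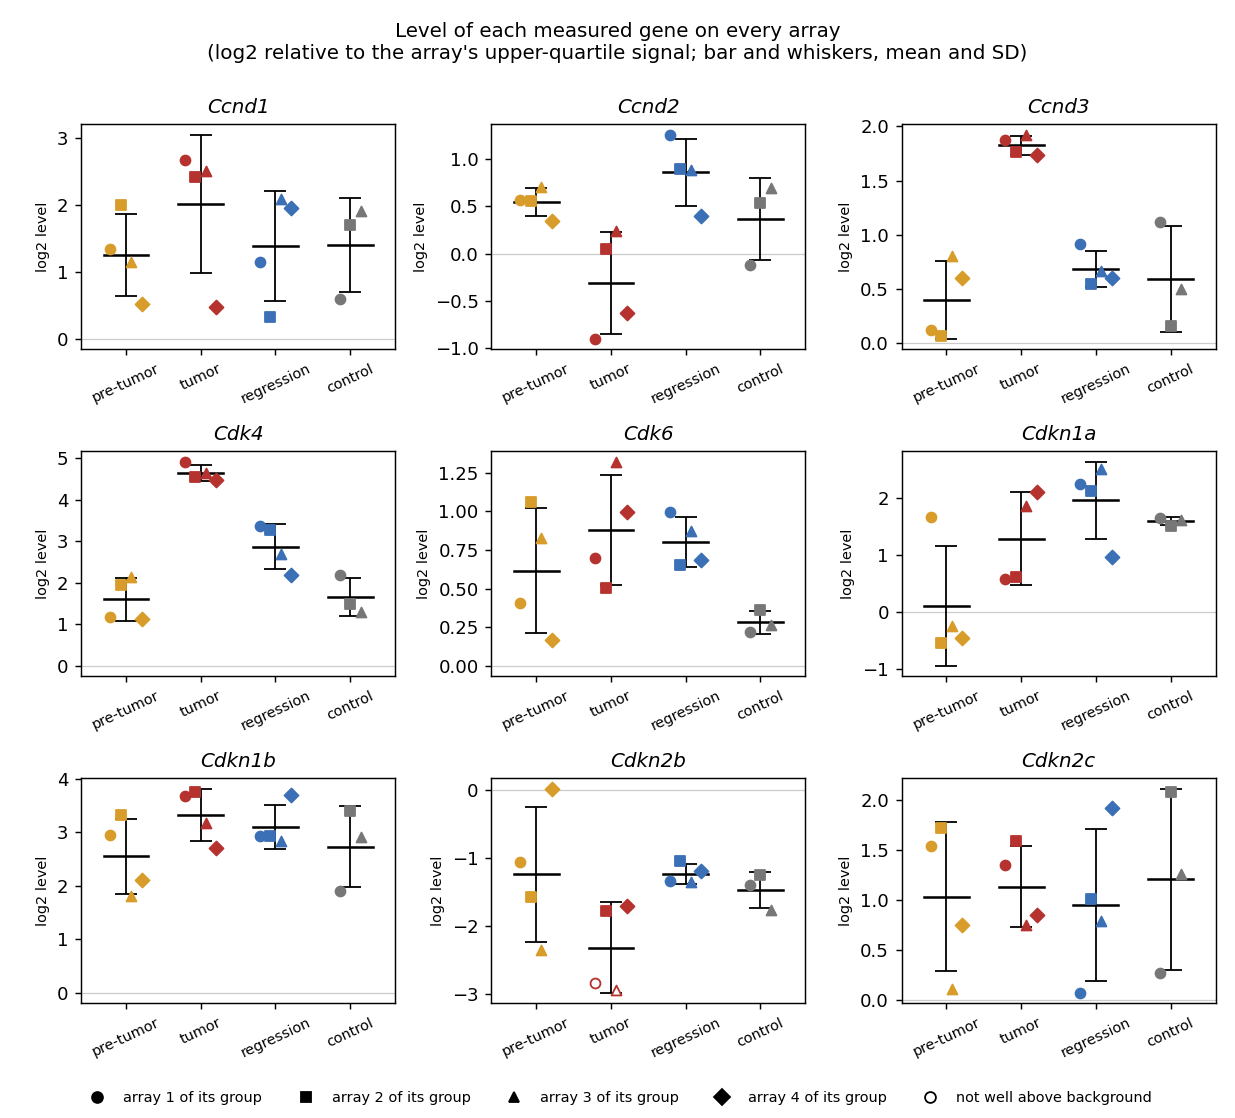
Log2 level of 9 genes on each of 15 arrays, 1 panel a gene. Points are arrays, with a marker shape for each array number within its group, open points were not well above background, and bars with whiskers are the group mean and SD. The 4 tumor nodules sit at 4.47 to 4.92 for Cdk4 and 1.74 to 1.92 for Ccnd3, above every other array in both panels.

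Cdk4 and Ccnd3 were higher in tumor nodules than in control livers, by 7.92-fold and 2.35-fold. These were the 2 of 9 measured genes called in that comparison, both higher, where 16.4% of all genes tested were called (9.37% higher and 7.01% lower). The same 2 genes were called higher in tumor nodules against pre-tumor livers, with 19.2% of all genes called. In regression samples against tumor nodules 3 of 9 were called, Cdk4 and Ccnd3 lower and Ccnd2 higher, with 16.8% of all genes called. In regression samples against pre-tumor livers 2 of 9 were called, Cdk4 and Cdkn1a, both higher, with 9.96% of all genes called. None of the 9 was called in regression samples against control livers, where 8.39% of all genes were. There 1 of the 9, Cdk4, had an unadjusted p under 0.05, beside 4762 of 19335 genes. None was called in pre-tumor livers against control livers, where limma called 0% of all genes. There 510 of 19335 genes had an unadjusted p under 0.05, fewer than chance alone would flag on average. Cdkn1a was the only 1 of the 9 among them. The median difference over the 9 genes was 0.59 in tumor nodules against control livers, -0.19 in regression samples against tumor nodules and 0.36 in regression samples against control livers. Over all genes tested those medians were -0.18, -0.12 and -0.24. Comparisons that share a group are not independent of each other.

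Cyclin D1, from Ccnd1, is a D cyclin known to drive hepatocytes into the cell cycle. Its probe read 1.34, 1.99, 1.14 and 0.52 in pre-tumor livers and 2.67, 2.42, 2.50 and 0.47 in tumor nodules. It read 1.14, 0.32, 2.09 and 1.96 in regression samples and 0.60, 1.70 and 1.91 in control livers. Tumor nodules 1 to 3 were the 3 highest arrays of all 15, while tumor nodule 4 lay below all but 1 of them, and the groups overlapped. Ccnd1 was 0.61 ± 0.58 (SE) higher in tumor nodules than in control livers on the log2 scale, with a 95% interval of -0.62 to 1.84 and an adjusted p of 0.536. Without tumor nodule 4 the difference was 1.13 ± 0.52, with an adjusted p of 0.15. Within the 3 slides that held both groups it ran from -1.22 to 1.90 and was positive in 2.

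Cyclin D2, from Ccnd2, had its lowest levels in tumor nodules. The probe that represents the gene, A_52_P53906, read 1.26, 0.89, 0.89 and 0.40 in regression samples against -0.90, 0.06, 0.24 and -0.62 in tumor nodules. It read 0.57, 0.56, 0.70 and 0.34 in pre-tumor livers and -0.12, 0.54 and 0.69 in control livers. Every tumor nodule lay below every pre-tumor and every regression array, and tumor nodules overlapped with the control livers because of the low control 1. Ccnd2 was 2.25-fold higher in regression samples than in tumor nodules (1.17 ± 0.33 SE on the log2 scale, adjusted p 0.0211), and within the 4 slides this difference ran from 0.17 to 1.79. It was -0.85 ± 0.33 in tumor nodules against pre-tumor livers (adjusted p 0.0861) and -0.68 ± 0.35 in tumor nodules against control livers (adjusted p 0.225). The former was called under 3 of 13 other ways of processing or fitting (adjusted p 0.0189 to 0.451 over the 13). Without tumor nodule 3 it was also called (-1.03 ± 0.33, adjusted p 0.0433).

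The other Ccnd2 probes followed the same order of groups with different sizes. A_52_P514391 read 0.99, 0.34, 0.19 and -0.30 in regression samples, against -1.16, -0.95, -1.88 and -1.15 in tumor nodules and -1.17, -0.45 and -1.56 in control livers. Regression samples lay above all tumor nodules and all control livers for this probe, and pre-tumor livers, at -0.14 to 0.60, lay above all tumor nodules. Taken by itself it was called in regression samples against tumor nodules (1.59 ± 0.36, adjusted p 0.00626), in tumor nodules against pre-tumor livers (-1.37 ± 0.36, adjusted p 0.013) and in regression samples against control livers (1.37 ± 0.39, adjusted p 0.0416). With every probe tested on its own, limma called 16%, 18.7% and 7.97% of 29877 probes in those comparisons. The remaining probe, A_51_P433228, was called in none.

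The Ccnd2 call in regression samples against tumor nodules was lost in several settings. Its adjusted p was 0.0538 with the slide as a block, 0.107 with median centring, 0.0666 without the 4 arrays with the highest signal of E1A spike-in control probes, and 0.0503 to 0.0853 without tumor nodule 1, tumor nodule 4 or any 1 of regression samples 1, 2 and 3. Markers of several cell types moved in the same comparison. Macrophage markers, 10 of 10 measured, had a mean level of 2.78 to 4.07 in regression samples against 1.47 to 2.24 in tumor nodules, and 7 of the 10 were called higher. Stellate cell and fibroblast markers, 9 of 9 measured, had a mean level of 1.68 to 3.42 in regression samples against 0.50 to 1.22 in tumor nodules, with 6 called higher. T and NK cell markers had 5 of 9 called higher and endothelial markers 6 of 9, beside 8.46% of all genes. Hepatocyte markers had 7 of 14 called higher, erythroid markers 4 of 5 and bile duct markers 1 of 7. None of 6 B and plasma cell markers and none of 4 neutrophil markers was called. The part of all these markers in the Ccnd2 difference was not tested.

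Cyclin D3, from Ccnd3, had the narrowest spread of the D cyclins in tumor nodules and its highest levels there. It read 1.87, 1.76, 1.92 and 1.74 in tumor nodules, against 1.11, 0.16 and 0.50 in control livers. It read 0.13, 0.07, 0.81 and 0.60 in pre-tumor livers and 0.92, 0.54, 0.67 and 0.60 in regression samples. No array of another group reached the lowest tumor nodule, and the other 3 groups overlapped. Ccnd3 was 1.23 ± 0.31 (SE) higher on the log2 scale in tumor nodules than in control livers (adjusted p 0.012), and 1.42 ± 0.29 higher than in pre-tumor livers (adjusted p 0.00213). It was 2.21-fold lower in regression samples than in tumor nodules (-1.14 ± 0.29, adjusted p 0.012). Regression samples and control livers differed by 0.09 ± 0.31, with a 95% interval of -0.57 to 0.75. Within slides, tumor nodules were above control livers by 0.81 to 1.58 on 3 of 3 slides, and regression samples were below tumor nodules by -1.33 to -0.84 on 4 of 4. The call against control livers was lost without control 2 (adjusted p 0.0721) and when only those 2 groups were fitted (adjusted p 0.0504), and the call in regression samples against tumor nodules with median centring (adjusted p 0.06).

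Cdk4, a catalytic partner of all D cyclins, had the largest difference of the 9 genes in tumor nodules against control livers. It read 4.92, 4.55, 4.64 and 4.47 in tumor nodules, against 2.19, 1.48 and 1.31 in control livers. It read 1.17, 1.95, 2.14 and 1.13 in pre-tumor livers and 3.36, 3.27, 2.68 and 2.18 in regression samples. The tumor nodules stood more than 1 log2 unit above every other array. Regression samples lay above every pre-tumor liver, and regression sample 4 met control 1 at about the same level. Cdk4 was 2.99 ± 0.38 (SE) higher on the log2 scale in tumor nodules than in control livers (adjusted p 4.78e-05), and 8.26-fold higher than in pre-tumor livers (3.05 ± 0.36, adjusted p 1.41e-05). In regression samples it was 3.42-fold lower than in tumor nodules (-1.77 ± 0.36, adjusted p 0.00272).

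After 72 hours back on doxycycline, Cdk4 read higher in regression samples than in pre-tumor livers, though this call was lost in several settings. Regression samples were 2.42-fold above pre-tumor livers (1.27 ± 0.36, adjusted p 0.0318). They were 2.32-fold above control livers (1.21 ± 0.38), which missed the threshold (adjusted p 0.0643) but passed it under 7 of 13 other settings (adjusted p 0.0148 to 0.179 over them). Pre-tumor livers and control livers differed by -0.06 ± 0.38, with a 95% interval of -0.88 to 0.75. The group means were 1.60 in pre-tumor livers, 4.64 in tumor nodules, 2.87 in regression samples and 1.66 in control livers. Tumor nodules were highest and regression samples next, and pre-tumor and control livers differed by less than their spread. Within slides the difference between tumor nodules and control livers ran from 2.45 to 3.24 and that between regression samples and tumor nodules from -2.46 to -1.19. Regression samples against control livers ran from -0.01 to 2.05 within 3 slides, and regression samples against pre-tumor livers from 0.23 to 2.23 within 4. Without the 4 arrays of highest E1A signal the difference against pre-tumor livers was 0.82 ± 0.39 (adjusted p 0.286). That call was also lost with the slide as a block (0.0886), with median centring (0.0515), when only the 2 groups were fitted (0.0787), and without pre-tumor liver 1 or 4 or any 1 of regression samples 1, 2 and 3 (0.0536 to 0.103). S and M phase genes had a mean level of -1.29 to -0.92 in regression samples, 1.93 to 2.24 in tumor nodules and -2.16 to -1.57 in control livers, and their part in the Cdk4 signal of regression samples was not tested.

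The promoters of the kinase genes are shown because Cdk4 differed between groups by more than any other gene of the set and Cdk6, its close relative, was not called. Each window holds 250 bases before and 50 after an annotated start, from RefSeq on build GRCm38.p6, which is the reference genome and not that of FVB/N mice. The table held 12 windows for 8 of the 10 genes. The E-box letters CACGTG, which read the same on both strands, are in capitals.
Cdk4, chr10:127063285-127063584, plus strand: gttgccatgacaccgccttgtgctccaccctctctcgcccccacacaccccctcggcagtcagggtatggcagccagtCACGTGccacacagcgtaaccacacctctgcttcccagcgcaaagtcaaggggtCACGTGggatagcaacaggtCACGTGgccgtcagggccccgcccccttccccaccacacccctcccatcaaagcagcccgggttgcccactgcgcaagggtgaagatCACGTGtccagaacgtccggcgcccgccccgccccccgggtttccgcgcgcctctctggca
Cdk6, chr5:3343643-3343942, plus strand: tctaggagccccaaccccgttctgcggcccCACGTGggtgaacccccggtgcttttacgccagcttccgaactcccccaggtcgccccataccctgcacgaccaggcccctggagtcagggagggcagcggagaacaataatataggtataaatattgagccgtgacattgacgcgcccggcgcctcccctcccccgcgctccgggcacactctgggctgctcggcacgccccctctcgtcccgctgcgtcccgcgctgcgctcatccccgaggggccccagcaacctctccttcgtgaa
The Cdk4 window held 4 copies of the E-box, starting 172, 118, 98 and 11 bases before the start site. Of all 32851 promoter windows in the table, 7.15% held at least 1 copy and 8 windows, or 0.0244%, held 4 or more. The Cdk6 window held 1 copy, 220 bases before the start, and 1 of the 2 Cdkn2c windows held 1 copy after its start. The GC box GGGCGG, searched on both strands, occurred 3 times in the Cdk4 window, of which 2 copies overlapped each other and none overlapped an E-box. It occurred in 9 of the 12 windows of the set, both windows of Ccnd3 among them, and in 35.7% of all windows. The E2F-type letters TTTGGCGC and TTTCCCGC, on either strand, occurred in 1 window of the set, the upstream one of Cdkn2a, against 1.56% of all windows. A match describes the letters and does not show binding.

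Cdk6, the second kinase that D cyclins activate, showed small differences. It read 0.70, 0.50, 1.32 and 1.00 in tumor nodules, against 0.22, 0.36 and 0.27 in control livers. It read 0.40, 1.06, 0.83 and 0.17 in pre-tumor livers and 1.00, 0.65, 0.88 and 0.68 in regression samples. All tumor nodules and all regression samples lay above the 3 control livers, whose spread was the smallest of the groups, and pre-tumor livers overlapped with every group. The difference was 0.60 ± 0.31 in tumor nodules against control livers (95% interval -0.06 to 1.26, adjusted p 0.225) and 0.52 ± 0.31 in regression samples against control livers (adjusted p 0.319). None of the 3 Cdk6 probes was called in any of the 6 comparisons.

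**Figure D2:**
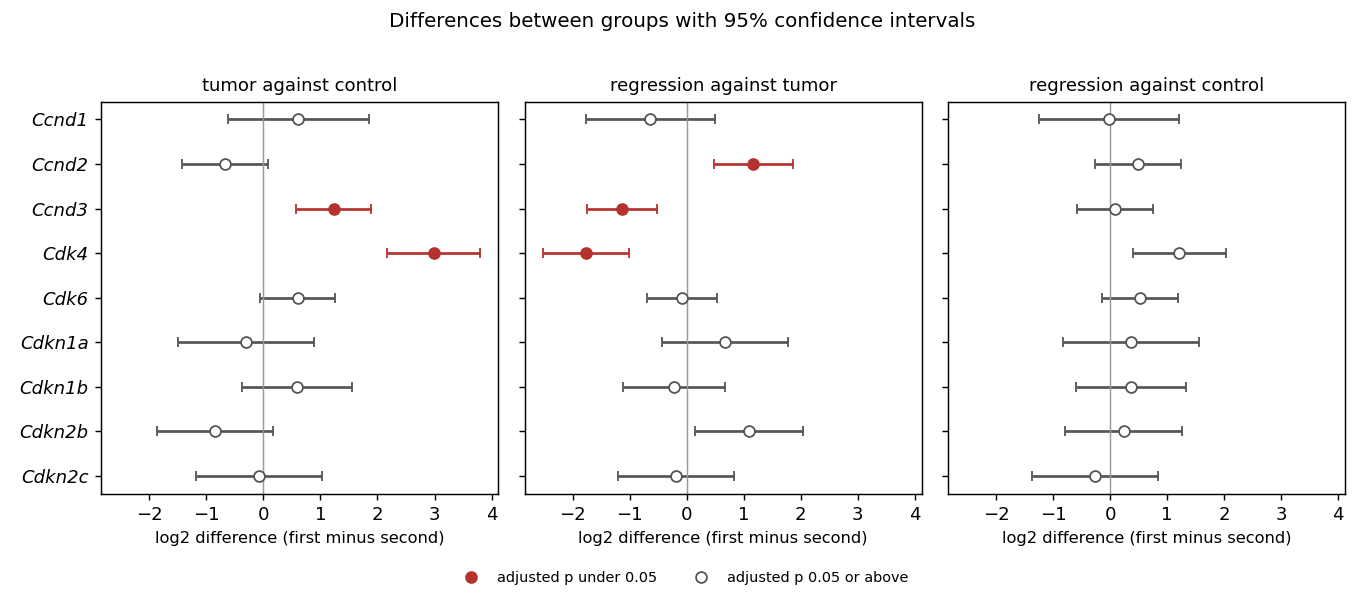
Log2 difference with its 95% interval for 9 genes in 3 comparisons, where each title names the group that comes first in the subtraction. Filled red points passed an adjusted p of 0.05. Cdk4 stands at 2.99 in tumor nodules against control livers and at 1.21, not called, in regression samples against control livers.

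Cdkn1a encodes p21, an inhibitor of cyclin and CDK complexes and a target of p53. Its levels were 2.24, 2.11, 2.51 and 0.97 in regression samples, against 1.67, -0.56, -0.24 and -0.46 in pre-tumor livers. They were 0.57, 0.60, 1.86 and 2.11 in tumor nodules and 1.65, 1.51 and 1.62 in control livers. Pre-tumor livers 2, 3 and 4 were the 3 lowest arrays of all, and pre-tumor liver 1 lay above the 3 control livers. The tumor nodules split into a low and a high pair, and regression sample 4 lay below the other 3 regression samples. Cdkn1a was 3.62-fold higher in regression samples than in pre-tumor livers (1.85 ± 0.52 SE on the log2 scale, adjusted p 0.0322), and the groups overlapped through pre-tumor liver 1 and regression sample 4. All 4 slides had a positive difference, of 0.44 to 2.75. Regression samples were not called against tumor nodules (0.67 ± 0.52, adjusted p 0.499) or against control livers (0.36 ± 0.56, adjusted p 0.74).

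In pre-tumor livers against control livers Cdkn1a differed by -1.49 ± 0.56, with an unadjusted p of 0.0173 and an adjusted p of 1. The 3 slides that held both groups gave -2.21 to -1.75. Pre-tumor liver 1 was on the slide with no control liver. Without pre-tumor liver 1 the difference was -2.01 ± 0.48 (adjusted p 0.771), and tumor nodules were then called higher than pre-tumor livers (1.71 ± 0.45, adjusted p 0.0177, against 1.18 ± 0.52 and an adjusted p of 0.138 with all arrays). The call in regression samples against pre-tumor livers was lost without any 1 of pre-tumor livers 2, 3 and 4 or of regression samples 1, 2 and 3 (adjusted p 0.0738 to 0.0941), with the slide as a block (0.0654) and when only those 2 groups were fitted (0.0617). In that comparison 7 of 10 macrophage markers were called higher and 1 lower, and 4 of 9 stellate cell and fibroblast markers higher. T and NK cell markers had 5 of 9 called higher, endothelial markers 2 of 9 higher and 1 lower, and hepatocyte markers 5 of 14 lower. Among bile duct and erythroid markers 1 each was called higher, and no B and plasma cell or neutrophil marker was called. Over all genes 5.03% were called higher and 4.93% lower. Mean macrophage levels were 2.78 to 4.07 in regression samples against 0.82 to 2.11 in pre-tumor livers. The part of these markers in the Cdkn1a difference was not tested.

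Both annotated promoter windows of Cdkn1a are shown because the gene is a known p53 target. Capitals mark decamers of the p53 type, one arm of its binding element, searched on both strands after the sequences had been read.
Cdkn1a, chr17:29090729-29091028, plus strand: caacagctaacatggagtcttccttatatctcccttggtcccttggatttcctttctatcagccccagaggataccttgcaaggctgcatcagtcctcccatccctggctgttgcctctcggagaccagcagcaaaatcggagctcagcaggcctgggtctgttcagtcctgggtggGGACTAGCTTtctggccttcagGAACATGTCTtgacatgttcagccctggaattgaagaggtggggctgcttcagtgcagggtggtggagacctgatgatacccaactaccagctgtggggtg
Cdkn1a, chr17:29093519-29093818, plus strand: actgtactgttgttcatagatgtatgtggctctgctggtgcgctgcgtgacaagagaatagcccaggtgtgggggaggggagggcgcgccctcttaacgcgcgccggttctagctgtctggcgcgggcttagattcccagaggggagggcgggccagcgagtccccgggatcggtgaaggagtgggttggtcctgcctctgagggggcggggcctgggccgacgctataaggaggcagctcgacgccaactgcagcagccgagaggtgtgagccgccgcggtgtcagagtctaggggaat
The upstream window held 2 such decamers, starting 73 and 51 bases before its start site, and the downstream window held none. At least 1 was found in 8.36% of all windows and at least 2 in 0.359%. The other windows of the set held none.

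Cdkn1b encodes p27, which restrains CDK2 and in hepatocytes is a brake on the cell cycle. The probe that represents the gene, A_51_P146126, read 2.95, 3.32, 1.81 and 2.11 in pre-tumor livers, 3.67, 3.76, 3.17 and 2.70 in tumor nodules, 2.94, 2.93, 2.83 and 3.70 in regression samples and 1.90, 3.40 and 2.91 in control livers. All groups overlapped, and no comparison was called for it. It was 0.59 ± 0.45 higher in tumor nodules than in control livers, with a 95% interval of -0.37 to 1.56.

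A second Cdkn1b probe, A_51_P169173, separated tumor nodules more clearly. It read 0.31, 0.17, -0.12 and -0.26 in tumor nodules, against -1.56, -1.33, -1.52 and -0.48 in pre-tumor livers and -0.27, -1.19 and -2.12 in control livers. All tumor nodules lay above all pre-tumor and control livers, though tumor nodule 4 and control 1 nearly met. This probe was called higher in tumor nodules against pre-tumor livers (1.25 ± 0.39, adjusted p 0.0345) and missed the threshold against control livers (1.22 ± 0.42, adjusted p 0.0631). The remaining probe, A_52_P673863, was called in no comparison, with 0.03 ± 0.33 in tumor nodules against control livers (adjusted p 0.967). The deposited annotation ties A_51_P169173 and A_52_P673863 to the same Cdkn1b transcript and A_51_P146126 to a cDNA clone.

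**Figure D3:**
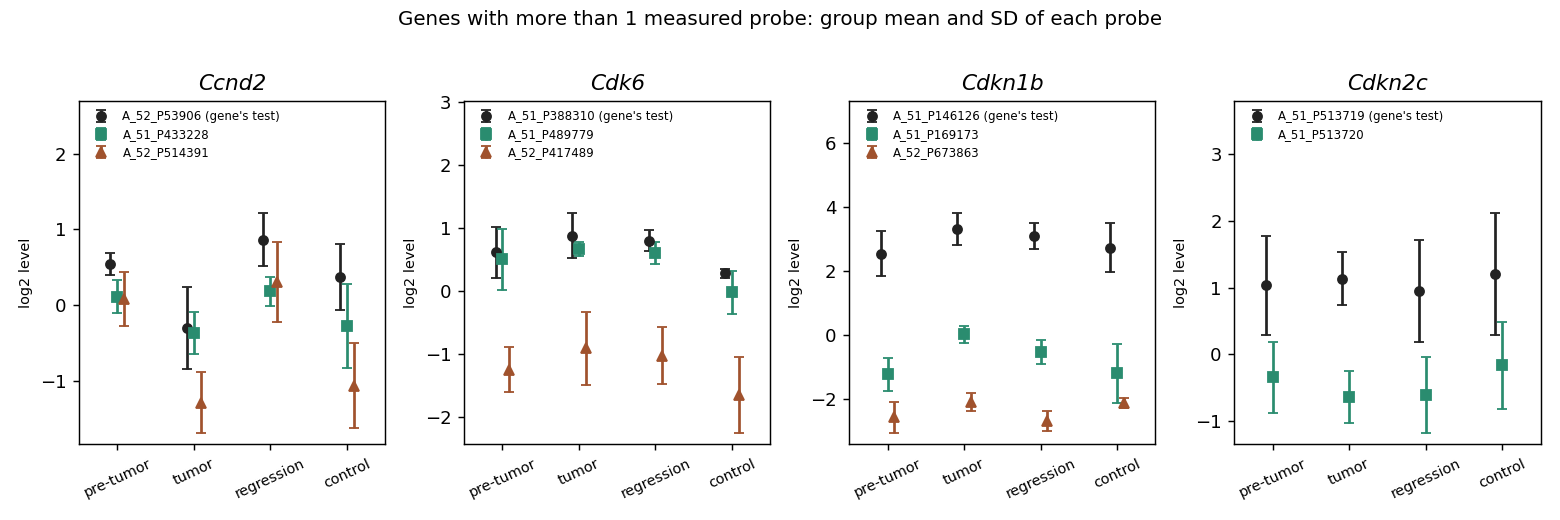
Group mean and SD of the log2 level of each measured probe for the 4 genes with more than 1 such probe, with the probe that represents the gene in black. The 3 Ccnd2 probes have their lowest mean in tumor nodules, and the Cdk6 and Cdkn2c probes differ little between groups. All Cdkn1b probes have their highest mean in tumor nodules, though for A_52_P673863 it is close to that of control livers (-2.08 against -2.11).

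Among the INK4 inhibitors, no gene was called in any comparison, and Cdkn2b had an unadjusted p under 0.05 in 2 of them. These were tumor nodules against pre-tumor livers and regression samples against tumor nodules, where 5646 and 5063 of 19335 genes had such a p. The Cdkn2a probe, from the locus of p16 and p19ARF, was not well above background on any of the 15 arrays, and no difference is given for it. Cdkn2b, which encodes p15, read -1.34, -1.04, -1.36 and -1.19 in regression samples against -2.84, -1.78, -2.94 and -1.70 in tumor nodules. It read -1.06, -1.58, -2.35 and 0.02 in pre-tumor livers and -1.39, -1.25 and -1.77 in control livers. All regression samples lay above all tumor nodules, of which nodules 1 and 3 were not well above background. The difference was 1.09 ± 0.44, with a 95% interval of 0.14 to 2.03 and an adjusted p of 0.12. Without the 4 arrays of highest E1A signal it was 1.29 ± 0.37 and was called (adjusted p 0.0352). In tumor nodules against pre-tumor livers Cdkn2b differed by -1.08 ± 0.44 (adjusted p 0.113), and it was called with the replicate block (adjusted p 0.048) and without pre-tumor liver 3 (-1.45 ± 0.42, adjusted p 0.0244).

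Cdkn2c encodes p18. Its brighter probe, A_51_P513719, ranged over 0.11 to 1.73 in pre-tumor livers, 0.75 to 1.59 in tumor nodules, 0.07 to 1.92 in regression samples and 0.27 to 2.09 in control livers, so each group covered much of the range of the others. The difference between tumor nodules and control livers was -0.07 ± 0.52, with a 95% interval of -1.18 to 1.03, which includes changes of more than 1 log2 unit either way. Neither of its 2 probes was called. The gene varied within groups: control 1, pre-tumor liver 3 and regression sample 1 were low and control 2 and regression sample 4 high. For Cdkn1b the representing probe was likewise lowest in control 1 among control livers, lowest in pre-tumor liver 3 among pre-tumor livers and highest in regression sample 4 among regression samples. The other Cdkn1b probes did not share this order. Both A_51_P169173 (-0.27) and A_52_P673863 (-2.02) read highest in control 1 among control livers, and neither was lowest in pre-tumor liver 3. In regression sample 4 A_51_P169173 had its lowest regression value (-0.87) and A_52_P673863 its highest (-2.36).

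The partners of these genes at the G1/S transition, of which 28 of 29 were measured, are described next to them. In tumor nodules against control livers 6 were called higher and 3 lower, beside 9.37% and 7.01% of all genes, with a median difference of 0.79 against -0.18 over all genes. Cdkn1c, which encodes the third CIP/KIP inhibitor p57, was 12.4-fold higher (3.64 ± 0.39 on the log2 scale, adjusted p 8.47e-06). Cks1b, a small protein that helps the ubiquitin ligase of p27 recognise it, was 8.42-fold higher (3.07 ± 0.35, adjusted p 1.62e-05). Tfdp1, the dimer partner of E2F factors, was 8.45-fold higher (3.08 ± 0.40, adjusted p 5.68e-05). Fbxo4, an F-box protein, was 2.46-fold lower (-1.30 ± 0.38, adjusted p 0.0293) and E2f6, a repressor of the E2F family, 2.12-fold lower (-1.08 ± 0.35, adjusted p 0.0471). The other Fbxo4 probe was not called (-1.24 ± 0.72, adjusted p 0.283). E2f8, a repressor of E2F targets, was called lower with its representing probe, which was not well above background in any tumor nodule and was at least 4.22-fold lower there than in control livers (adjusted p 0.000166). The other E2f8 probe read higher in tumor nodules (1.18 ± 0.47, adjusted p 0.108), so this gene has no settled direction.

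In tumor nodules against pre-tumor livers 10 of the 28 partners were called higher and 3 lower, with 9.98% and 9.23% of all genes called higher and lower. E2f8 was 1 of the 3 by its representing probe (adjusted p 0.00227), but its other probe was called higher there (2.38 ± 0.43, adjusted p 0.00095). In regression samples against tumor nodules 2 were called higher and 9 lower, with 8.46% and 8.35% of all genes, and a median difference of -0.69. Cks1b was 9.15-fold lower (-3.19 ± 0.33, adjusted p 1.53e-05), Tfdp1 7.47-fold lower (-2.90 ± 0.37, adjusted p 0.000105) and Ccna2, the S phase cyclin A2, 22.0-fold lower (-4.46 ± 0.59, adjusted p 0.000133), with 1 of 4 regression arrays well above background. Fbxo4 was 3.42-fold higher (1.77 ± 0.36, adjusted p 0.00274) and Rbl2, the retinoblastoma relative p130 that marks quiescent cells, 2.46-fold higher (1.30 ± 0.40, adjusted p 0.0348), with 2 of 4 tumor arrays well above background. The other probes of Fbxo4 (0.36 ± 0.67, adjusted p 0.832) and Rbl2 (0.86 ± 0.65, adjusted p 0.472) were not called there. Cdkn1c was called higher in regression samples against control livers, by 6.22-fold (2.64 ± 0.39, adjusted p 0.000427), where 1 partner was called higher and 2 lower and 5.12% and 3.27% of all genes were. In regression samples against pre-tumor livers 1 was called higher and 1 lower, with 5.03% and 4.93% of all genes called.

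Genes of S and M phase lie downstream of the G1 kinases, and 23 of 23 were measured. Of these 22 were called higher in tumor nodules against control livers, with a median difference of 4.04, beside 9.37% of all genes. In tumor nodules against pre-tumor livers 23 were called higher, beside 9.98%. All 23 were called lower in regression samples against tumor nodules, with a median of -3.05, beside 8.35%. Against control livers 5 were called higher in regression samples, beside 5.12%. Birc5, which encodes survivin, was 61.4-fold higher in tumor nodules than in control livers (5.94 ± 0.36, adjusted p 6.18e-08), and Mcm7, a subunit of the replication helicase, 13.2-fold higher (3.72 ± 0.30, adjusted p 6.25e-07). Cdk1, the mitotic kinase, was at least 14.3-fold higher (adjusted p 4.25e-07), since its representing probe was not well above background on any control array. A second Cdk1 probe was not called (1.19 ± 0.60, adjusted p 0.208). In regression samples against control livers Mcm2, another helicase subunit, was 3.33-fold higher (1.74 ± 0.39, adjusted p 0.0117), Birc5 2.67-fold higher (1.42 ± 0.36, adjusted p 0.0221) and the proliferation marker Mki67 4.44-fold higher (2.15 ± 0.56, adjusted p 0.0267). The probes of Mcm2 and Mki67 were well above background on 1 of 3 control arrays, and the other Mki67 probe was not called there (0.83 ± 0.70, adjusted p 0.494).

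Genes known as p53 targets were listed because Cdkn1a is itself a p53 target, and 25 of 26 were measured. In tumor nodules against control livers 6 were called higher and 1 lower, beside 9.37% and 7.01% of all genes, with a median of 0.55. They included Tnfrsf10b, a death receptor (3.74-fold higher, adjusted p 0.00156), and Bbc3, which encodes PUMA, a promoter of apoptosis (2.44-fold higher, adjusted p 0.0237). Pmaip1, which encodes NOXA, was 6.80-fold higher (adjusted p 0.015). Its groups overlapped, and 1 of 3 control arrays was well above background. Fas, another death receptor, was 3.37-fold lower (adjusted p 0.00697), with 1 of 4 tumor arrays well above background. In regression samples against pre-tumor livers, the comparison in which Cdkn1a was called, 2 of 25 were called higher and 1 lower, beside 5.03% and 4.93% of all genes, and the median was 0.20 against -0.21 over all genes. Sesn1, a stress-induced inhibitor of mTORC1 signalling, was 2.65-fold higher there (1.41 ± 0.31, adjusted p 0.00777). Pmaip1 was 8.17-fold higher in the same comparison (3.03 ± 0.67, adjusted p 0.00798), while Fas was 2.41-fold lower (-1.27 ± 0.38, adjusted p 0.0443). The other measured probes of Tnfrsf10b in tumor nodules against control livers, and of Sesn1 and Fas in regression samples against pre-tumor livers, were not called. Of the MYC network, 14 of 14 were measured. With its brightest probe for each gene none was called in tumor nodules against control livers. Of the 14, 4 had an unadjusted p under 0.05, beside 5511 of 19335 genes, a similar share. Mxd1 and Mxd4, which encode partners of MAX that compete with MYC, were called higher in regression samples against tumor nodules (2.20 ± 0.58, adjusted p 0.0151, and 1.41 ± 0.32, adjusted p 0.00598), although their other probes were not.

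**Figure D4:**
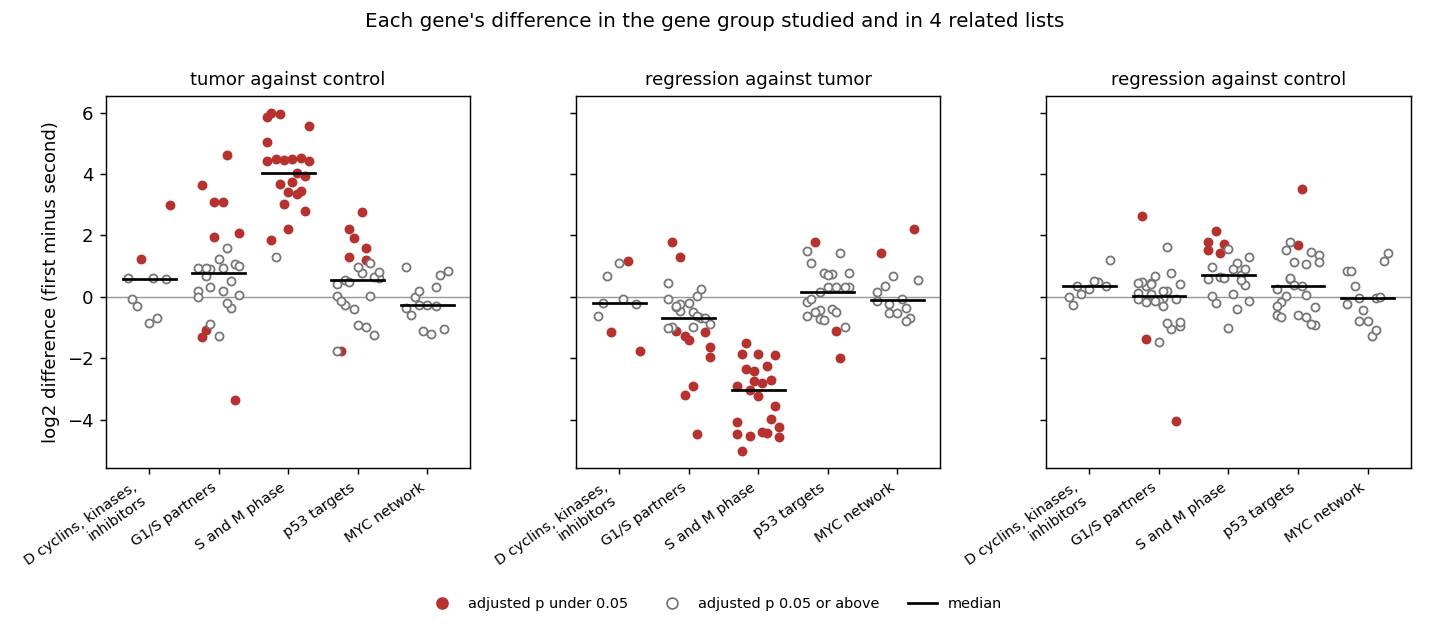
Log2 difference of each gene in 3 comparisons for the 9 measured genes of the set and for 4 related lists, with red points called and black lines at the median. The S and M phase list has a median of 4.04 in tumor nodules against control livers and -3.05 in regression samples against tumor nodules, while the medians of the set are 0.59 and -0.19.

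For each gene called in at least 1 comparison, the 3 genes with the closest profile over the 15 arrays were found as those with the smallest root mean square difference of the mean-centred log2 levels. Genes with a missing value were left out, as were symbols of a clone, predicted or expressed-sequence type and those of capitals and digits only. The likeness is a description, since genes on the same arrays share their scaling. For Cdk4 they were Dnmt1, Fkbp11 and Sae1, at 0.31, 0.33 and 0.35 log2 units, where the SD of Cdk4 over the arrays was 1.35. Dnmt1, the maintenance DNA methyltransferase, averaged 1.22 ± 0.17 in tumor nodules, -0.69 ± 0.40 in regression samples and -1.96 ± 0.67 in control livers (SD). For Ccnd3 they were Med4, Bax and Eif3g, at 0.18, 0.21 and 0.23 with an SD of 0.65. Bax, a promoter of apoptosis that is also in the p53 list, averaged 0.47 ± 0.15 in tumor nodules, -0.66 ± 0.52 in regression samples and -0.72 ± 0.52 in control livers. For Ccnd2 they were Gprc5c, Ern1 and Ids, at 0.30, 0.31 and 0.32 with an SD of 0.57. For Cdkn1a they were Map3k3, Col15a1 and Cep170, at 0.64, 0.65 and 0.68 with an SD of 1.01, a looser likeness than for the other 3 genes.

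**Figure D5:**
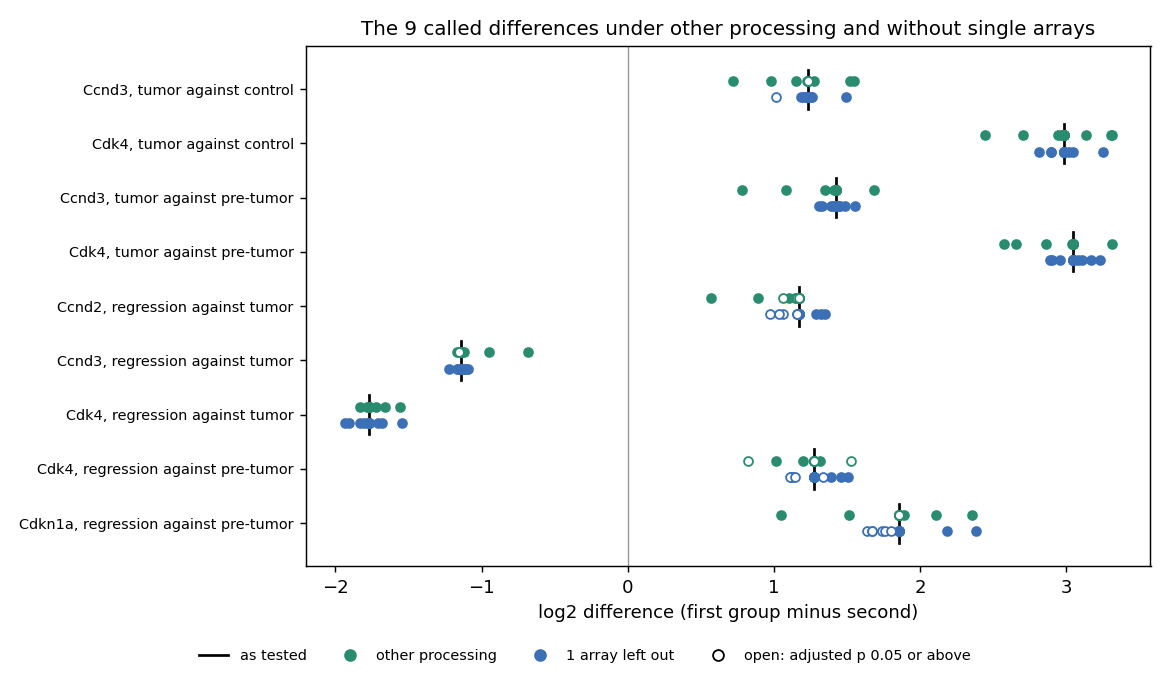
The 9 called differences on the log2 scale. Black bars are the values as tested, green points 13 other ways of processing or fitting, blue points the fits without 1 array, and open points have an adjusted p of 0.05 or above. All points for Cdk4 in tumor nodules against control livers, in tumor nodules against pre-tumor livers and in regression samples against tumor nodules are filled, and no point changes sign.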

How the data were processed

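Per the labels' protocols, frozen tissue RNA was amplified with a whole transcriptome kit, labelled with Cy3 and put on Agilent mouse arrays of the 4x44K format. The authors' deposited scans come, per the file headers, from Agilent Feature Extraction 10.5.1.1, whose processed signals are intensity values with background subtracted. The authors also deposited a normalized log2 table whose method is not given in the sources used here; it supplied the gene symbols and 1 alternative. From the intensities, log2 of the processed signal minus that array's 75th percentile was computed for the 43379 spots of each array, outlier spots (0.452% of gene values) were left out, and spots of a probe were averaged. Probes well above background on at least 3 arrays were kept, and the probe with the highest mean represented its gene. limma 3.58.1 in R 4.3.3 fitted 4 groups together (11 residual degrees of freedom) and tested 6 comparisons with Benjamini-Hochberg adjustment over all genes, each comparison by itself. Intervals are at 95%. The number of arrays, 3 or 4 a group, limits the precision.

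The members and lists were chosen with earlier results of these data known. All members and probes are named, as are Myc and, from each list, up to 3 called genes a direction by adjusted p, given for the comparisons that bear on the members. Where a whole group had no array well above background, the fold is a lower bound, the mean of the bright group against the higher of the floor and the probe's own signal on each array of the dim group. For the normexp alternative the median spot signal was used, where the mean had been planned. The script was tested on simulated data. The 4 slides each held several groups, so the slide was tried as a block and differences within slides were computed. The main test did not pair samples by replicate number. Same-numbered arrays correlated above 0.1 in 11 of 21 pairs (r from -0.44 to 0.61), and arrays of the same slide in 2 of 21 (r from -0.54 to 0.20). Whether the numbers pair samples cannot be told from these values, and the replicate number was also tried as a block.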

Additional observations from a re-analysis of the deposited data

Results flagged for a closer look

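Of 48 groups of 4 arrays tested over the member probes, 3 held an array far from the others by Dixon's ratio at its 95% critical value, where chance flags about 1 in 20 groups. Ccnd1 read 0.47 in tumor nodule 4, where the next tumor nodule read 2.42. Cdkn1a read 1.67 in pre-tumor liver 1, where the next pre-tumor liver read -0.24. The representing Cdkn1b probe read 3.70 in regression sample 4, where the next regression sample read 2.94. Tumor nodule 4 and pre-tumor liver 1 were among the 4 arrays with the highest signal of the E1A spike-in probes; the part of this in their values was not tested.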

How the results depend on the processing

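The 9 called differences were recomputed under 13 other ways of processing or fitting and without each of the 15 arrays. None changed sign. Of 117 values from the other settings 106 stayed called, and of 135 without an array 118 did. Cdk4 stayed called under all of these in tumor nodules against control livers (2.44 to 3.31 over the other settings), in tumor nodules against pre-tumor livers (2.57 to 3.31) and in regression samples against tumor nodules (-1.83 to -1.56).

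The number of members called was 2 in tumor nodules against control livers and became 1 when only those 2 groups were fitted. It was 2 in tumor nodules against pre-tumor livers and became 4 with the mean of all probes of a gene. It also rose through Ccnd2 with normexp and quantile normalization or the authors' table, and through Cdkn2b with the replicate block. It was 3 in regression samples against tumor nodules, became 1 with median centring and lost Ccnd2 alone with the slide as a block. It was 2 in regression samples against pre-tumor livers and became 1 with median centring or without the 4 arrays of highest spike-in signal, and 0 with the slide as a block or when only those 2 groups were fitted. It was 0 in regression samples against control livers and became 1, Cdk4 each time, with normexp and quantile normalization, quantile normalization alone, the authors' table, the filter on every array of a group, the replicate block, trended and robust variance, or without those 4 arrays. In the replicate block the adjusted p of that Cdk4 difference was 0.0251. Without 1 array the counts were 1 to 2, 2 to 3, 2 to 3, 0 to 2 and 0 to 1 in the same order. The cause of these changes was not tested beyond the fewer arrays or groups in some fits. The dimmest array had a median signal of 6.78, and Cdkn2a and the dim tumor values of Cdkn2b are limited by background.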
